A study of Mus musculus with 6 samples.

Results

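The genes described here encode 7 chemokines, Ccl2, Ccl7, Ccl8, Ccl11, Ccl5, Ccl20 and Cx3cl1, and the macrophage growth factor Csf1. They were chosen by gene symbol, with earlier results of these data known, and are 8 of the 55367 rows of the unfiltered count table. The cells were fibroblastic reticular cells (FRCs), the fibroblasts of the lymph node's reticular network, grown as a mouse cell line. Their poly(A) RNA was sequenced in 6 libraries, 2 for each of 3 media. All cultures spent 96 h in conditioned medium, renewed every 48 h, that source cells had conditioned for 24 h in plain RPMI and that was then given 2% fetal bovine serum and penicillin-streptomycin. In the control medium group the source cells were themselves an FRC line, in the 67NR medium group they were 67NR cells and in the 4T1 medium group 4T1 cells. Both tumour lines are mouse mammary carcinoma lines. No medium without conditioning was among the samples, so every comparison is between conditioned media. All libraries come from 1 cell line, and nothing in the labels says whether the 2 libraries of a group came from separate cultures. The p-values therefore measure the spread between these libraries, which may be technical.

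CCL2 and CCL7 attract monocytes that carry the receptor CCR2, and they are classical products of stromal cells that meet inflammatory signals. CSF1 acts through CSF1R to keep monocytes and macrophages alive and growing, and fibroblasts of lymphoid organs are a known source of it. CX3CL1, or fractalkine, is made as a membrane-bound chemokine that proteases release, and its receptor CX3CR1 is found on monocytes and macrophages. CCL5 signals through receptors that include CCR1 and CCR3, CCL11 through CCR3, the receptor of eosinophils, and CCL20 through CCR6.

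Total counts per library lay between 13.6 and 21.8 M (M, 1e6), and levels are given as CPM, the counts of a gene per M counts of its library. A single count equalled 0.0463 to 0.0743 CPM. Libraries of the same medium correlated across genes with r of at least 0.992, and libraries of different media with r of at most 0.979, where genes are not independent replicates. Of 12 FRC markers, 4 were at 0 counts in every library (Thy1, Ccl19, Ccl21a and Cxcl13), while Pdpn stood at a mean of 124 CPM in control, 103 CPM in 67NR and 105 CPM in 4T1 medium. Against control, Pdpn was lower in 67NR and 4T1 medium (edgeR adjusted p = 0.0226 and 0.0304). In 4T1 medium Pdgfra rose and Pdgfrb fell against control (log2 1.92 and -0.77). Col1a2 was low, at means of 13.4 CPM in control, 6.95 CPM in 67NR and 5.33 CPM in 4T1 medium. The line thus carried Pdpn and Col1a1 transcripts but neither Thy1 nor the lymphoid chemokines that mark FRCs in lymph nodes. Of the 8 markers tested, 2 rose and 5 fell in 4T1 medium against control, beside 19.9% and 19.2% of all tested genes. In 67NR medium 2 rose and 3 fell, beside 13% and 14.6%. The summed FRC marker level, most of it Col1a1, was 9430 to 9890 CPM in 4T1 medium and 17500 to 19100 CPM in the other libraries. The share of counts from mitochondrial genes was 1.32 and 1.87% in control medium, 1.96 and 2.28% in 67NR medium and 2.11 and 2.37% in 4T1 medium. Its part in the results below was not tested.

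Ccl2 and Ccl7 were the 2 genes of the set called higher in 4T1 medium against control, and both were called lower in 67NR medium. Of all tested genes, 19.9% were called higher in 4T1 medium and 14.6% lower in 67NR medium. Ccl2 lies at chr11:82035571-82037453 on the plus strand of GRCm38 (the mm10 assembly, GENCODE M21). Its level was 12.5 and 15.5 CPM in control medium, 7.23 and 7.74 CPM in 67NR medium, and 80.2 and 92.8 CPM in 4T1 medium. The 3 groups did not overlap. The group means were 14.0 ± 2.17, 7.48 ± 0.361 and 86.5 ± 8.94 CPM (SD, n = 2 each).

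Against control medium, Ccl2 was 6.26-fold higher in 4T1 medium (95% interval 5.3 to 7.39; log2 fold change 2.65, SE 0.11; edgeR quasi-likelihood adjusted p = 1.13e-09). In 67NR medium it fell by 45.9% (log2 fold change -0.89, SE 0.14; edgeR adjusted p = 0.000386). The direct comparison of the tumour media gave an 11.6-fold higher level in 4T1 medium (95% interval 9.71 to 13.8; log2 3.53, SE 0.12; edgeR adjusted p = 1.11e-10). Ccl2 was thus on opposite sides of the control in the media of the 2 tumour lines. In bulk RNA, more cells that make a transcript and more of it per cell cannot be told apart. Both tumour media were set against the same control libraries, so the 2 comparisons with control are not independent of each other.

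Ccl7, the neighbour of Ccl2 at chr11:82045712-82047525 on the plus strand, encodes a chemokine that shares CCR2. Its level was 25.4 and 26.6 CPM in control medium, 15.4 and 17.1 CPM in 67NR medium, and 146 and 158 CPM in 4T1 medium. As for Ccl2, the groups did not overlap. Against control, Ccl7 was 5.85-fold higher in 4T1 medium (95% interval 5.17 to 6.61; log2 2.55, SE 0.08; edgeR adjusted p = 8.34e-11) and fell by 37.4% in 67NR medium (log2 -0.67, SE 0.09; edgeR adjusted p = 0.000139). Between the tumour media the difference was 9.34-fold (95% interval 8.22 to 10.6; log2 3.22, SE 0.08; edgeR adjusted p = 1.35e-11).

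The pair kept a similar balance in all media. The number of Ccl2 counts for each Ccl7 count was 0.49 and 0.584 in control medium, 0.468 and 0.452 in 67NR medium and 0.55 and 0.588 in 4T1 medium. The ratio was lowest in 67NR medium, and the control and 4T1 libraries overlapped. No stretch of 31 bases was shared between transcripts of Ccl2 and Ccl7, nor with those of the other cluster genes examined, so reads of that length or more are specific to 1 of them. A gene model antisense to Ccl2, Gm17268, had 0 counts in all 6 libraries.

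**Figure D1:**
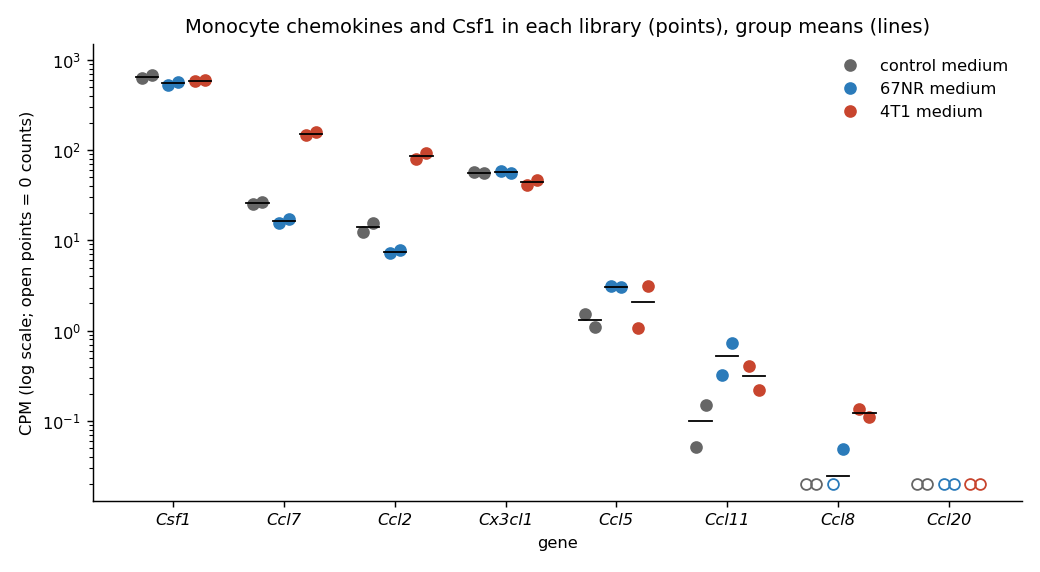
Level of the 8 genes in CPM on a log axis, with 1 point per library and a line at the mean of the 2 libraries of each medium; open points at the bottom mark 0 counts. Ccl2 and Ccl7 stand apart in the 4T1 libraries, at 80.2 to 92.8 and 146 to 158 CPM, whereas Csf1 lies between 532 and 685 CPM in all 6 libraries.

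Ccl8 and Ccl11, further along the same cluster of chromosome 11, had few counts in any medium. Ccl11, or eotaxin (chr11:82057823-82062955), had 1 and 2 counts in control medium, 7 and 15 in 67NR medium and 6 and 4 in 4T1 medium. Its summed count in 67NR medium, 22 against 3 in control medium, gives a ratio of 5.69 at scaled depth (95% counting interval 1.71 to 29.7). For 4T1 medium the ratio to control was 3.29 (0.847 to 18.6), an interval that includes no difference. These intervals cover counting error only.

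Ccl11 did not pass the filter on low counts and so was not among the 15055 genes tested. Without that filter, edgeR gave it a log2 fold change of 2.42 (SE 0.873; edgeR adjusted p = 0.036) for 67NR against control medium and 1.63 (SE 0.993; edgeR adjusted p = 0.29) for 4T1 against control medium. DESeq2 did not call Ccl11 higher in 67NR medium. Ccl8, which encodes another chemokine of the Ccl2 subfamily (chr11:82115185-82116799), had 0 counts in both control libraries, 0 and 1 in 67NR medium, and 2 in each 4T1 library. Set against a floor of 3 counts over the control group, the 4 counts in 4T1 medium gave a ratio of 1.32 at scaled depth. This ratio is not a lower bound, since it takes the 4 counts as exact, and their counting interval was 1.09 to 10.2. At this depth little can be said of Ccl8. Without the filter its edgeR adjusted p was 0.366 for 4T1 against control medium.

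Whether the neighbours of Ccl2 and Ccl7 moved with them could mostly not be determined at this depth. In 67NR medium, where Ccl2 and Ccl7 fell, the summed count of Ccl11 was higher than in control, at 22 against 3. DESeq2 did not call that difference. From the start of Ccl2, the genes of the cluster start at 10.14 kb (Ccl7), 22.25 kb (Ccl11), 66.27 kb (Ccl12), 79.61 kb (Ccl8) and 270.12 kb (Ccl1, the last by its longest model). Ccl12, also a CCR2 ligand in the mouse, had 0 counts in all 6 libraries, and Ccl1 had 2 counts in all. Counts enough for a test were therefore confined, among the 6 genes of this cluster, to Ccl2 and Ccl7.

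The second cluster of chromosome 11 begins with Ccl5 and also holds Ccl9, Ccl6, Ccl3 and Ccl4. Its most abundant gene was Ccl9, a chemokine that acts on CCR1, with 4.57 and 5.35 CPM in control medium, 7.13 and 7.54 CPM in 67NR medium and 251 and 239 CPM in 4T1 medium. It starts 48.12 kb from the start of Ccl5. Ccl9 rose 49.9-fold in 4T1 medium and 1.5-fold in 67NR medium against control (edgeR adjusted p = 2.37e-13 and 0.00489). Ccl6, 62.57 kb from Ccl5, also rose in both media from a control mean of 0.204 CPM, by log2 3.21 (SE 0.48) in 4T1 medium and 1.8 (SE 0.56) in 67NR medium. A transcript antisense to Ccl6, E230016K23Rik, had 538 counts, and since the strand setting of the counting is not given, reads of the 2 cannot be told apart. Ccl3 and Ccl4 had 3 and 5 counts in the 6 libraries together.

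**Figure D2:**
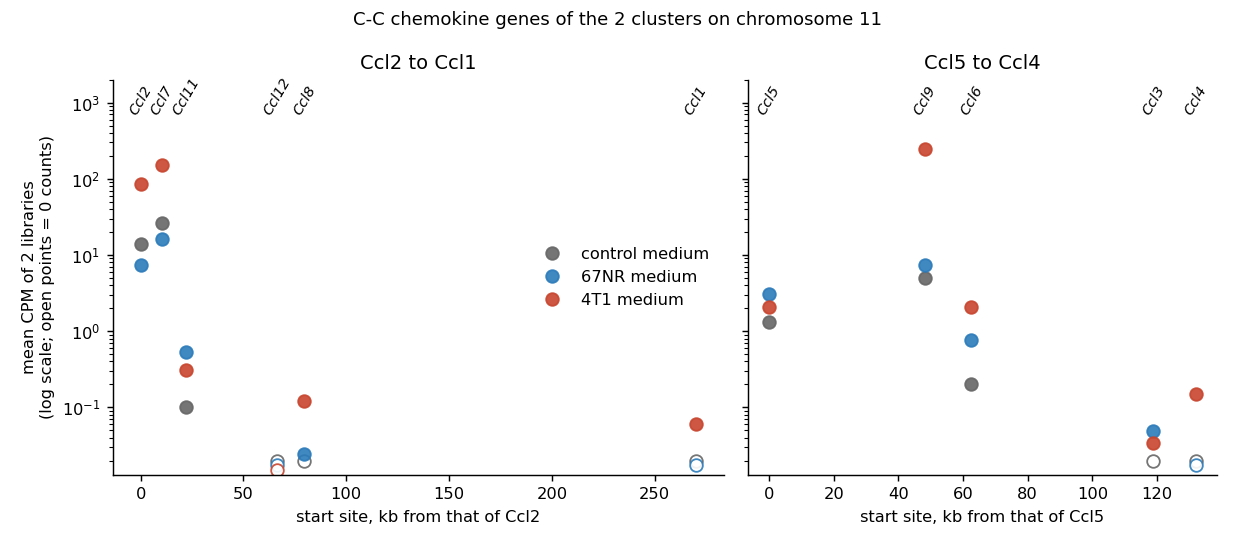
Mean level of the C-C chemokine genes of both clusters on chromosome 11, in CPM on a log axis, against the distance of each start site from that of the first gene; 1 point per medium, mean of 2 libraries, with open points at the bottom, spread vertically for sight only, for 0 counts. In 4T1 medium Ccl2, Ccl7 and Ccl9 reach means of 86.5, 152 and 245 CPM. The genes further right in each panel are at or under 0.312 CPM there, apart from Ccl6 at 2.07 CPM.

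Ccl5 (chr11:83525778-83530518, minus strand), a chemokine of T cells and of interferon-exposed tissue, was low, and its 4T1 libraries differed from each other. It had 29 and 15 counts in control medium (1.51 and 1.11 CPM), 68 and 62 in 67NR medium (3.15 and 3.02 CPM), and 16 and 57 in 4T1 medium (1.08 and 3.10 CPM). The control and 67NR libraries did not overlap, while 1 library of 4T1 medium lay below both control libraries and the other lay between the 67NR libraries.

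In 67NR medium Ccl5 was 2.3-fold higher than in control (log2 1.20, SE 0.38; edgeR adjusted p = 0.0319). That call was lost with any of the 4 libraries of the comparison left out: edgeR adjusted p became 0.0936 without control replicate 1, 0.164 without control replicate 2, 0.122 without 67NR replicate 1 and 0.0921 without 67NR replicate 2. The log2 fold change stayed of like size, at 1.46, 1.03, 1.17 and 1.23 in that order. DESeq2 gave 1.23 with an adjusted p of 0.0701. For 4T1 against control medium the log2 fold change was 0.69 (95% interval -0.20 to 1.59; edgeR adjusted p = 0.208), and its sign followed the library kept: 1.20 (edgeR adjusted p = 0.00793) without 4T1 replicate 1 and -0.31 (edgeR adjusted p = 0.613) without 4T1 replicate 2. Between the tumour media it was -0.51 (95% interval -1.25 to 0.24; edgeR adjusted p = 0.262), and -1.51 (edgeR adjusted p = 0.00495) without 4T1 replicate 2. The 2.87-fold gap between the 4T1 libraries leaves the level of Ccl5 in 4T1 medium undetermined.

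Ccl20, the CCR6 ligand on chromosome 1 (chr1:83116766-83119167), had 0 counts in all 6 libraries. A count of 0 allows a level of up to 0.0917 CPM in control medium, 0.0712 CPM in 67NR medium and 0.0905 CPM in 4T1 medium (3 counts over each group).

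Cx3cl1, at chr8:94772009-94782427, was the 1 gene of the set called lower in 4T1 medium against control, as were 19.2% of all tested genes. Its level was 56.7 and 56.0 CPM in control medium, 59.3 and 55.6 CPM in 67NR medium and 41.4 and 46.5 CPM in 4T1 medium. Both 4T1 libraries lay below the other 4, and the control and 67NR libraries overlapped. The fall in 4T1 medium was 21.9% against control (log2 -0.36, SE 0.08; edgeR adjusted p = 0.00344) and 23.3% against 67NR medium (log2 -0.38, SE 0.08; edgeR adjusted p = 0.00159). For 67NR against control medium the log2 difference was 0.03 (95% interval -0.14 to 0.19; edgeR adjusted p = 0.843), which leaves room for small changes either way.

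Csf1 had the most counts of the set, 8538 to 12019 per library, and its log2 change was largest in 67NR against control medium, at -0.24. It lies at chr3:107741048-107760469 on the minus strand, with 7 annotated transcripts, 6 of them coding, which the gene-level counts do not separate. Its level was 624 and 685 CPM in control medium, 532 and 572 CPM in 67NR medium and 577 and 595 CPM in 4T1 medium. All tumour-medium libraries lay below both control libraries.

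In 67NR medium Csf1 fell by 15.6% (log2 -0.24, SE 0.07, 95% interval -0.39 to -0.10; edgeR adjusted p = 0.0184). With 1 library left out, edgeR adjusted p became 0.189 without control replicate 2, 0.225 without 67NR replicate 1 and 0.0588 without 67NR replicate 2. In 4T1 medium the log2 difference from control was -0.16 (95% interval -0.31 to -0.01; edgeR adjusted p = 0.0886) and did not pass the threshold. It passed with no filter on low counts (edgeR adjusted p = 0.0396), with the replicate number as a block (0.0416) and without 4T1 replicate 2 (0.0485). Between the tumour media the difference was 0.09 on the log2 scale (95% interval -0.06 to 0.24; edgeR adjusted p = 0.342). In 4T1 medium against control, where Ccl2 and Ccl7 changed by log2 2.65 and 2.55, the interval of Csf1 reached no further than -0.31.

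Promoters of 4 of the 8 genes (Csf1, Cx3cl1, Ccl8 and Ccl20) were in the RefSeq table of GRCm38.p6. Those of Csf1 and Ccl20 are shown because both hold a match to the NF-kB consensus, though the counts of the 2 genes lie at opposite ends of the set. Each sequence is the 250 bases before the annotated start, 5′ to 3′ on the strand of the gene, from chr3:107760470-107760719 (minus strand) for Csf1 and chr1:83116516-83116765 (plus strand) for Ccl20. Capitals mark motif matches.
Csf1: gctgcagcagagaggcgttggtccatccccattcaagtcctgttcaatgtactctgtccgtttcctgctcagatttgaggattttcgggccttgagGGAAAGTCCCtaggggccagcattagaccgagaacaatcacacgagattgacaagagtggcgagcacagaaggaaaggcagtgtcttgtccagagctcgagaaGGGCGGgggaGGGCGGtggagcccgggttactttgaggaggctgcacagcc
Ccl20: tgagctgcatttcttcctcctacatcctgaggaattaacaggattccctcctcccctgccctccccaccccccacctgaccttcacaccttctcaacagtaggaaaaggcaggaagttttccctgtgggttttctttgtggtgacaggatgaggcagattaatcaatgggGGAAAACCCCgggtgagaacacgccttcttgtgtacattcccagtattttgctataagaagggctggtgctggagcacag
In the Csf1 promoter the NF-kB match GGAAAGTCCC begins at base -154 from the start, and 2 copies of the Sp1 motif GGGCGG begin at -51 and -41. In the Ccl20 promoter the NF-kB match GGAAAACCCC begins at -80. Both NF-kB matches are to the consensus as read on the other strand, and no match overlapped another.

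Motifs were searched on both strands of 300 bases, 250 before to 50 after the start, and the same windows of 32851 mouse promoters give the background. There the NF-kB consensus was found in 8.46%, GGGCGG in 35.7% and the TATA box TATAAA in 13.6%. Ccl8 held TATAAA. Cx3cl1 held GGGCGG and TATAAA, but its RefSeq start lies inside the GENCODE gene and its TATAAA begins at -6, so this window may not be the promoter in use. None of the 4 windows held the AP-1 motif TGANTCA (7.81% of all promoters), the C/EBP motif TTGCNNAA (10.8%), the STAT motif TTCNNNGAA (8.3%) or GAAANNGAA, part of the interferon response element (8.56%). The windows of Csf1 and Cx3cl1 held 16 and 19 CpG, those of Ccl20 and Ccl8 held 3 and 2, and the median promoter held 7. A match is a description of these letters and not a measured site.

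Of the 5 genes tested, 2 rose and 1 fell in 4T1 medium against control, beside 19.9% of all tested genes that rose and 19.2% that fell (edgeR adjusted p under 0.05). In 67NR medium against control 1 rose (Ccl5) and 3 fell (Ccl2, Ccl7 and Csf1), beside 13% and 14.6% of all tested genes. In 4T1 against 67NR medium 2 rose and 1 fell, beside 23.5% and 19.9%. The choice of the genes was made with these results known, and 5 genes are few, so the counts are a description. By size, Ccl2 and Ccl7 were 214th and 231st of 15055 genes in order of log2 rise in 4T1 medium against control. The 67NR counts were the least firm, since leaving out control replicate 2, 67NR replicate 1 or 67NR replicate 2 left 2 of the 4 calls, Ccl2 and Ccl7. Leaving out any 1 of the 4 libraries lowered the genes called over the whole table from 4150 to between 2227 and 2459.

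**Figure D3:**
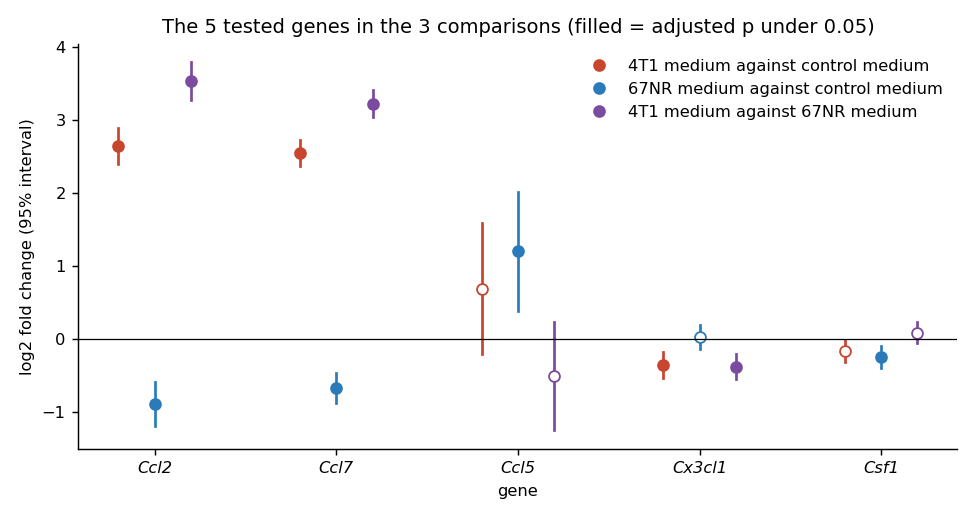
Log2 fold change of the 5 tested genes in the 3 comparisons, with 95% intervals from the edgeR fit; filled points have an adjusted p under 0.05. Ccl2 and Ccl7 lie above 2 in both comparisons of 4T1 medium and below 0 for 67NR against control, and the widest intervals are those of Ccl5.

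To compare levels between genes, CPM were divided by the length of all annotated exons in kb. On that scale Csf1 led in control medium with 124 ± 8.11 CPM per kb (SD, n = 2), followed by Ccl7 (32.5 ± 1.03), Cx3cl1 (14.3 ± 0.127), Ccl2 (12.3 ± 1.91) and Ccl5 (1.36 ± 0.288). The gap between Cx3cl1 and Ccl2 there was about the SD of Ccl2, so these neighbours were not clearly apart. The order was the same in 67NR medium, with Csf1 at 105, Ccl7 at 20.3, Cx3cl1 at 14.6, Ccl2 at 6.57 and Ccl5 at 3.21 CPM per kb. In 4T1 medium Ccl7 came first with 190 ± 10.8 CPM per kb, ahead of Csf1 with 111 ± 2.46, Ccl2 with 76.0 ± 7.86, Cx3cl1 with 11.2 ± 0.905 and Ccl5 with 2.18 ± 1.49. Every other pair of neighbours was apart by more than their SDs.

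The summed level of the 8 genes was 177 and 192 CPM per kb in control medium, 145 and 155 in 67NR medium and 374 and 407 in 4T1 medium. Csf1 made up 66.8 and 67.5% of that sum in control medium, 69.5 and 70.1% in 67NR medium, and 29.2 and 27.7% in 4T1 medium. Ccl2 and Ccl7 together stood at 0.361 and 0.362 of the level of Csf1 per kb in control medium, 0.254 and 0.26 in 67NR medium and 2.31 and 2.47 in 4T1 medium. The transcript pool of these genes was therefore mostly Csf1 in control and 67NR medium and mostly Ccl7 and Ccl2 in 4T1 medium.

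**Figure D4:**
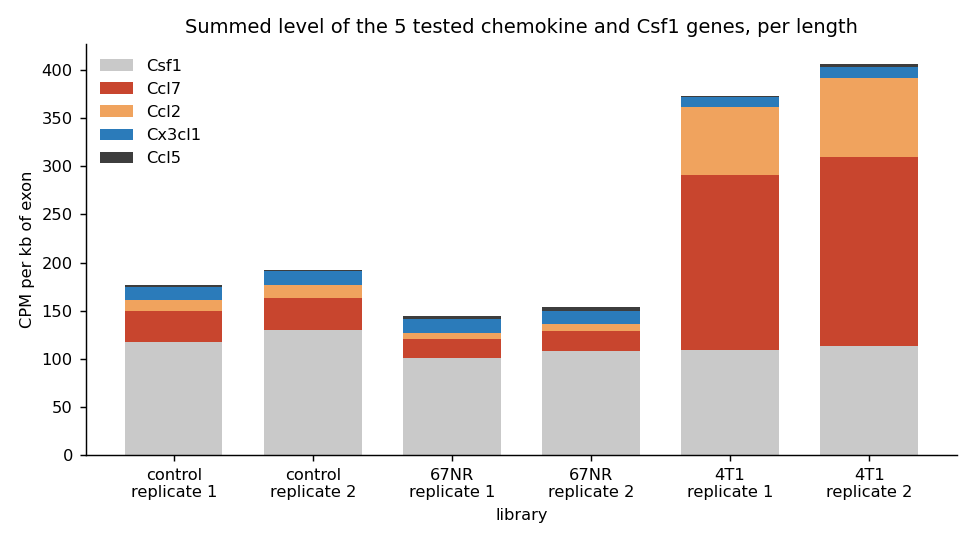
Stacked level of the 5 tested genes in each library, in CPM per kb of annotated exon. The Csf1 layer stays of like height in all 6 libraries, and the Ccl7 and Ccl2 layers take the sum from 145 to 192 up to 374 and 407 in the 4T1 libraries.

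Receptors of these ligands were nearly silent in the FRC line. Ccr1, Ccr2 and Ccr6 had 0 counts in all 6 libraries, Ccr3 had 2 counts and Cx3cr1 had 1. Csf1r could be tested, at 1.49 to 2.41 CPM, and was called in none of the 3 comparisons (edgeR adjusted p = 0.943, 0.359 and 0.269). The scavenger Ackr2, which takes up CCL2 and its relatives, was at 0 counts. Ackr3, a scavenger of CXCL12 rather than of these ligands, rose from 11.7 ± 1.57 CPM in control medium to 25.3 ± 4.15 CPM in 67NR medium and 57.6 ± 3.14 CPM in 4T1 medium (SD, n = 2 each; edgeR adjusted p = 3.97e-05 and 1.26e-08). Ackr4, a scavenger of CCL19, CCL21 and CCL25, had 14 counts in each control library, 5 and 16 in 67NR medium and 0 in both 4T1 libraries (edgeR adjusted p = 0.00181 for 4T1 against control medium).

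Markers of monocytes were examined because such cells would carry these receptors. Of 12 monocyte and macrophage markers, Adgre1, Ccr2, Fcgr1 and Tyrobp had 0 counts, and Ptprc, Itgam, Aif1 and Cx3cr1 had 1 count each. The summed level of the list was 7.42 to 12.6 CPM in control and 67NR libraries and 42.2 to 46.0 CPM in 4T1 libraries, and 4.93 and 5.07 CPM in the latter without Ly6c2. Lyz2 and Cd68 were detected. Lyz2, the lysozyme gene of myeloid cells, averaged 5.25 CPM in control, 8.99 CPM in 67NR and 2.04 CPM in 4T1 medium (log2 0.8 and -1.33 against control; edgeR adjusted p = 0.00256 and 0.000248), and Cd68 averaged 0.728, 0.78 and 1.19 CPM. Ly6c2, a member of a family of close copies whose reads may be split, averaged 0.393 CPM in control, 0.215 CPM in 67NR and 39.1 CPM in 4T1 medium. Its log2 change in 4T1 medium against control was 6.59 (edgeR adjusted p = 4.64e-11), opposite in direction to Lyz2. The part of such cells in the results was not tested. Mammary carcinoma markers summed to 1.58 and 2.23 CPM in 4T1 medium and 5.74 to 8.83 CPM elsewhere, with Epcam and Esrp1 at 0 counts throughout.

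Other myeloid growth factors changed in both directions. Of 7 listed, 5 were tested, and 3 rose and 2 fell in 4T1 medium against control, while 1 rose and 2 fell in 67NR medium. Over all tested genes 19.9% rose and 19.2% fell in 4T1 medium, and 13% rose and 14.6% fell in 67NR medium. The other ligand of CSF1R, Il34, fell from 6.35 ± 0.568 CPM in control medium to 4.3 ± 0.317 in 67NR medium and 2.7 ± 0.197 in 4T1 medium (log2 -0.57 and -1.25; edgeR adjusted p = 0.0241 and 0.000195). Tnfsf11, which encodes the osteoclast factor RANKL, rose from 1.07 to 8.57 CPM in 4T1 medium (log2 2.96, SE 0.23; edgeR adjusted p = 3.44e-07), and for 67NR medium its log2 difference was 0.55 (SE 0.29; edgeR adjusted p = 0.173). Mif, the macrophage migration inhibitory factor, fell by 0.76 on the log2 scale in 67NR medium and rose by 0.46 in 4T1 medium. Flt3l, the growth factor of dendritic cell precursors, rose by log2 1.37 in 4T1 and 0.92 in 67NR medium, from a control mean of 2.17 CPM.

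Of the 15 other C-C chemokines listed, 5 had counts enough for the test, and in 4T1 medium against control 3 of these rose (Ccl9, Ccl6 and Ccl25) and Ccl17 fell. In 67NR medium against control the same 3 rose and none fell. The shares of all tested genes were 19.9% higher and 19.2% lower in 4T1 medium, and 13% and 14.6% in 67NR medium. The genes past Ccl9 had low levels. Ccl25, known from thymus and gut, averaged 4.58 CPM in control medium and 6.41 to 6.51 CPM in the tumour media. The median log2 change over the 5 was 0.47 in 4T1 medium and 0.49 in 67NR medium, against medians of 0.01 and 0.00 over all tested genes. Ccl6 and Ccl17, both under 5 CPM, are named because the counts are small.

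Genes whose products act on these ligands or their mRNAs came next. Among 9 factors of chemokine mRNA decay and stability, 2 rose and 2 fell in 4T1 medium and 3 rose and 1 fell in 67NR medium, both against control, near the shares of all tested genes in 4T1 medium (19.9% higher, 19.2% lower; in 67NR medium 13% and 14.6%). Zc3h12a, which encodes the endonuclease Regnase-1 that degrades inflammatory mRNAs, stood at 8.95 CPM in control, 8.99 CPM in 67NR and 49.2 CPM in 4T1 medium (log2 2.48 for 4T1 against control, SE 0.14; edgeR adjusted p = 1.34e-08). Zfp36, encoding tristetraprolin, a binder of AU-rich elements, rose in both media, from 80.9 CPM to 124 CPM in 67NR medium and 198 CPM in 4T1 medium. Hnrnpd fell by 0.45 on the log2 scale in 67NR medium and did not pass the test in 4T1 medium (log2 0.03). Zfp36l2 went opposite ways, with log2 -0.19 in 4T1 medium and 0.22 in 67NR medium.

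Proteases that shed or clip these ligands were tested as 8 of 9 listed. In 67NR medium against control 4 rose and none fell, beside 13% and 14.6% of all tested genes. In 4T1 medium against control 3 rose and none fell, beside 19.9% and 19.2%. Mmp14 and Mmp2, genes of matrix metalloproteinases, the second of which clips CCL7, rose in 67NR medium, Mmp14 from 756 to 1310 CPM and Mmp2 from 702 to 1130 CPM (edgeR adjusted p = 5.23e-06 and 5.92e-06). In 4T1 medium the log2 differences from control of these 2 genes were 0.16 and 0.09. Adam17, a sheddase of CX3CL1 and membrane CSF1, was at 74.6 CPM in control and 88.5 CPM in 4T1 medium (log2 0.25, SE 0.07; edgeR adjusted p = 0.0145). Bace1 rose by log2 0.34 in 67NR medium. The other members called were low: Mmp3 and Mmp13 in 4T1 medium, at means of 1.3 and 0.848 CPM, and Mmp9 in 67NR medium, at 1.4 CPM.

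Chemokines are held in tissue by heparan sulfate, and 11 of 12 genes of its assembly were tested. In 4T1 medium against control 5 rose and 1 fell, beside 19.9% and 19.2% of all tested genes. In 67NR medium 2 rose and 1 fell, near the 13% and 14.6% of all tested genes. Sulf1 and Sulf2, which trim 6-O-sulfate outside the cell, moved in different media: Sulf1 rose from 31.2 to 60.6 CPM in 4T1 medium (log2 0.96) and Sulf2 from 101 to 198 CPM in 67NR medium (log2 0.96). Both differed between the tumour media (log2 0.93 and -0.88 for 4T1 against 67NR; edgeR adjusted p = 4.37e-06 and 5.51e-07). The epimerase gene Glce rose from 62.7 to 120 CPM in 4T1 medium, and the 6-O-sulfotransferase gene Hs6st1 fell from 18.9 to 11.5 CPM in 67NR medium.

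Known regulators of chemokine genes, from the NF-kB, AP-1, STAT, IRF and C/EBP families and with Sp1, were tested as 19 of 19 listed. In 4T1 medium against control 16 rose and 1 (Jun) fell, beside 19.9% and 19.2% of all tested genes, and the median log2 change was 0.89 against 0.01 over all tested genes. In 67NR medium 9 rose and 1 (Cebpd) fell, beside 13% and 14.6%, with a median of 0.16. The largest rises in 4T1 medium were in Bcl3 and Nfkbiz, which encode atypical IkB proteins of the nucleus. Bcl3 went from 5.96 to 50.8 CPM (log2 3.08, SE 0.13) and Nfkbiz from 18.8 to 139 CPM (log2 2.89, SE 0.10). Cebpb rose from 25.8 to 128 CPM. Irf7, an interferon-induced gene, was higher in 67NR medium, at 23.6 CPM against 3.89 CPM in control and 7.48 CPM in 4T1 medium (log2 2.61 for 67NR against control, SE 0.20; edgeR adjusted p = 7.34e-07).

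Receptors through which cytokines induce Ccl2 and Ccl7 were tested as 15 of 15 listed. Against control 11 rose and 3 fell in 4T1 medium (median log2 0.78), beside 19.9% and 19.2% of all tested genes, and 6 rose and none fell in 67NR medium (median log2 0.19), beside 13% and 14.6%. Il1r1 rose from 38.8 CPM in control to 61.7 CPM in 67NR and 154 CPM in 4T1 medium. Osmr, the oncostatin M receptor gene, rose from 213 to 252 and 701 CPM, and Pdgfra from 33.7 to 61.6 and 128 CPM. Il17ra rose from 44.3 to 144 CPM in 4T1 medium and was at 50.6 CPM in 67NR medium (edgeR adjusted p = 0.123).

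Of 9 genes of monocyte adhesion, 5 were tested. In 4T1 medium 3 rose against control (Selp, the gene of P-selectin, Vcam1, and Cd44) and none fell, beside 19.9% and 19.2% of all tested genes. Selp also fell in 67NR medium, as the 1 gene of the 5 that was called there (14.6% of all tested genes fell), with means of 21.4 ± 0.0786 CPM in control, 10.7 ± 0.135 CPM in 67NR and 136 ± 18.0 CPM in 4T1 medium (SD, n = 2 each; log2 2.67 and -1.0 against control). Vcam1 was at 206 CPM in control, 208 CPM in 67NR and 627 CPM in 4T1 medium, and Cd44 at 117, 127 and 169 CPM.

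**Figure D5:**
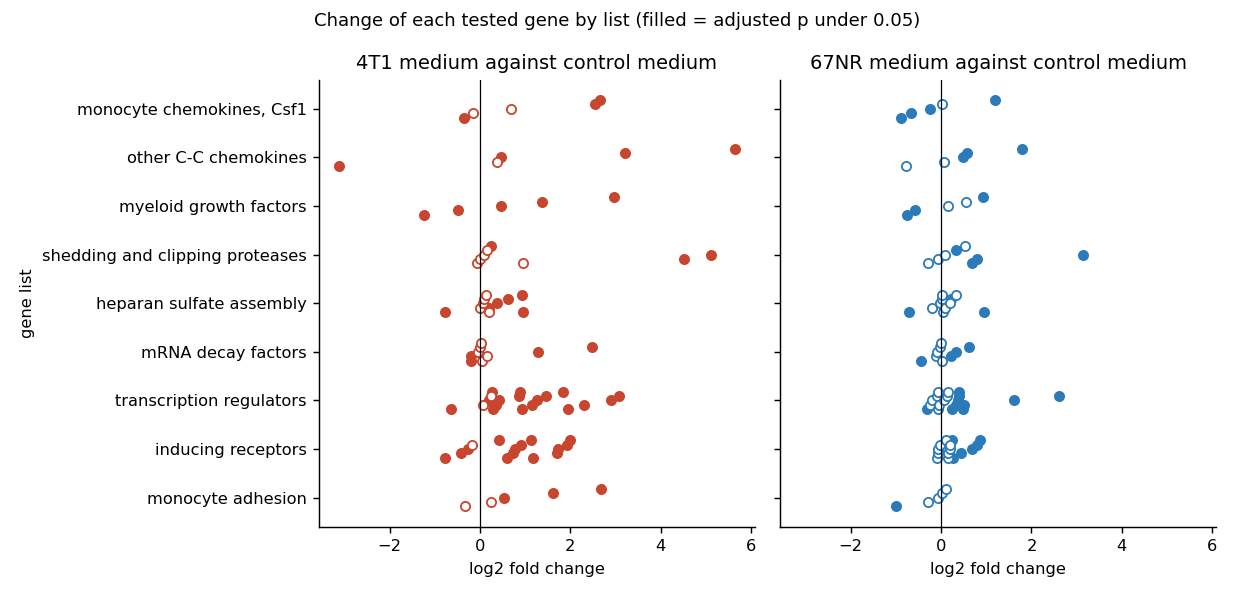
Log2 fold change of each tested gene against control medium, for 4T1 medium (left) and 67NR medium (right), in 9 gene lists; 1 point per gene, filled where the edgeR adjusted p is under 0.05, with vertical offsets for sight only. In 4T1 medium 16 of 19 regulators rose and 1 fell, and 11 of 15 receptors rose and 3 fell, beside 19.9% and 19.2% of all tested genes, and Ccl2 and Ccl7 lie at 2.65 and 2.55.

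Likeness to Ccl2, Ccl7 and Csf1 was measured over the 6 libraries as the distance between log2 CPM profiles, each centred on its own mean. The 5 tested genes nearest to Ccl2 were Selp (distance 0.28), Gfra1 (0.348), Ccl7 (0.36), Camp (0.421) and Syt13 (0.438). Selp thus lay nearer to Ccl2 than its cluster neighbour did. Nearest to Ccl7 were Camp (0.236), Anxa8 (0.32), Runx1 (0.332), Ccl2 (0.36) and Hspa12a (0.413). Camp had few counts, with means of 0.0631, 0 and 0.862 CPM in control, 67NR and 4T1 medium, so that the prior count of 2 in the log2 CPM shapes its profile. Anxa8 averaged 26.6, 15.6 and 132 CPM, and Runx1 7.94, 5.28 and 44.3 CPM.

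Csf1 had closer neighbours, as genes that changed little lie near one another, among them Smarcad1 (0.0598), Gm16199 (0.0604), Gm9242 and Rap1b (0.0782 each). The distance from Csf1 to Ccl2 was 3.64 and to Ccl7 3.39. With Pearson correlation in place of the distance, 0 of the 5 genes nearest to Ccl2 and 0 of those nearest to Ccl7 were the same. The lists of neighbours are a description of these 6 libraries, in which genes share depth and medium.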

How the data were processed

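Per the labels' protocols, poly(A) RNA from 500 ng of total RNA per sample was made into directional libraries. The authors deposited read counts per gene symbol, unfiltered and filtered, with the same values for the 14629 genes of the filtered table. Per the submitters' processing notes, Subread, mm10 and DESeq2 1.32.0 were used. How reads were aligned, and whether counting used the strand, is not given in the sources used here.

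The unfiltered counts were used. Of 26346 genes with a count, 15055 passed filterByExpr of edgeR 4.0.16 (R 4.3.3; minimum count 10, minimum total 15). CPM use library totals of tested genes scaled by TMM. The edgeR quasi-likelihood test was fitted to all 6 libraries by medium (common biological coefficient of variation 5.81%, 3 residual and 9.62 prior degrees of freedom), with Benjamini-Hochberg adjustment over all tested genes, threshold 0.05 and 95% intervals. A standard error is the size of the log2 fold change over the square root of F. Code was tested on simulated counts. Counts of untested genes were compared by exact counting intervals with a floor of 3 counts. Exon lengths and positions come from GENCODE M21, and promoters from RefSeq. No protein sequence was used here.

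The genes and gene lists were chosen with earlier results of these data known. Besides the 8 genes, up to 4 genes of each list are named: those with the largest called log2 change and at least 5 CPM in the higher group; in addition genes at 0 or with few counts, and genes that complete a small count, are named. Marker genes, Mmp and Ccl examples outside that rule were chosen after their values were seen. For likeness, the 5 nearest profiles are named (log2 CPM, prior count 2), except that some genes are not reported here. Alternatives were size factors of the DESeq2 kind, library totals alone, the genes of the filtered table, no filter, the replicate number as a block, the 2 groups alone, each library left out, DESeq2 1.42.0 and limma-voom (limma 3.58.1). Replicates of a medium differed beyond sampling noise (chi-square per degree of freedom 4.04 to 7.88). Figures used Python 3.11.15 with matplotlib 3.10.9.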

Additional observations from a re-analysis of the deposited data

Results flagged for a closer look

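For 3 genes the response to 4T1 medium differed from the response to 67NR medium in a direct test, which with shared control libraries is the comparison of the 2 tumour media. The difference was 3.53 on the log2 scale for Ccl2, 3.22 for Ccl7 and -0.38 for Cx3cl1 (edgeR adjusted p = 1.11e-10, 1.35e-11 and 0.00159). Of all tested genes, 23.5% were called higher and 19.9% lower in 4T1 than in 67NR medium, so a call alone is common here. Both 4T1 libraries lay beyond both 67NR libraries for each of the 3 genes. They also did so for Csf1, which was not called (edgeR adjusted p = 0.342), so this does not set the 3 apart. For Ccl2 and Ccl7 the 2 responses were of opposite sign. For Cx3cl1 only the response to 4T1 medium passed the test against control.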

How the results depend on the processing

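Each of the 15 log2 fold changes (5 genes, 3 comparisons) was recomputed under 12 alternatives. Of these values, 164 kept their direction and their side of the threshold, 5 passed it only under the alternative, 8 lost it and 3 changed sign. Ccl2 and Ccl7 kept their calls in all 12 alternatives of every comparison, and Cx3cl1 kept its call in both comparisons of 4T1 medium. Ccl2 ranged from 2.466 to 2.796 (4T1 against control), -1.057 to -0.7374 (67NR against control) and 3.417 to 3.624 (4T1 against 67NR).

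With each library left out in turn, genes called in 67NR against control fell from 4150 to between 2227 and 2459, with fewer samples in each fit, and calls among the 8 genes fell from 4 to between 2 and 3. Signs changed only for values that had not been called. Cx3cl1 in 67NR against control ranged from -0.02149 to 0.07041, Ccl5 in 4T1 against control from -0.3123 to 1.198 and Ccl5 in 4T1 against 67NR from -1.51 to 0.001007.

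Over all tested genes, libraries of the same replicate number hardly deviated together (correlations of deviations -0.0406, 0.00508 and 0.0685). For Ccl2, Ccl7 and Csf1, replicate 2 was the higher library in every medium, while for Cx3cl1 and Ccl5 the order differed between media. The labels do not say whether a number marks a shared batch. With the replicate numbers as a block, genes called were 6057, 4382 and 6668 in place of 5888, 4150 and 6531. Csf1 in 4T1 against control then passed the threshold (log2 -0.1569). No scaling moved the median of all genes by over 0.1 on the log2 scale. With 2 libraries a group, changes the size of those of Csf1 sit at the threshold. Depth leaves Ccl8, Ccl20 and, in 4T1 medium, Ccl11 undetermined. In 67NR medium the rise of Ccl11 rests on 22 counts against 3 in control, and DESeq2 did not call it.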
